A study of Mus musculus with 6 samples.

Results

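The nuclear genes for respiratory complexes II to V encode most of the subunits with which mitochondria finish respiration and make ATP. Genes listed as protein-coding were taken by symbol: those starting with Sdha to Sdhd, Uqcr, Cox4 to Cox8 or Atp5, together with Cyc1 and Cycs. This gave 55 gene identifiers of 55401 in the deposited tables, with 8 assigned to complex II, 9 to complex III, 1 to cytochrome c, 19 to complex IV and 18 to complex V. The symbol rule also brings in 4 assembly factors of complex II, the supercomplex factor Cox7a2l, the single-exon copy Cox5b-ps and a second identifier of Atp5o, listed at 0 in every library. It leaves out the ATP synthase inhibitor Atpif1, the complex IV subunit Ndufa4 and the subunits encoded in mitochondria, which are given below as other genes of the pathway.

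RNA came from kidney tissue of mice made diabetic with streptozotocin (type 1 diabetes), a compound that destroys insulin-producing cells. The 3 WT/Sed libraries came from wild-type mice and the 3 Cdo1KKO/Sed libraries from mice labelled Cdo1KKO, and each library is labelled a separate biological replicate. The study's design text concerns Cdo1, the cysteine dioxygenase, of the renal tubule, and asks which signalling pathways it affects. The labels do not spell out Sed or KKO and give no Cre driver, age, sex or batch, and they list no non-diabetic kidney.

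Complex II (succinate dehydrogenase) and complex III (cytochrome bc1) pass electrons to ubiquinone and from there to cytochrome c, and complex IV (cytochrome c oxidase) hands them to oxygen. Complexes III and IV pump protons, and complex V (ATP synthase) uses the proton gradient to make ATP. Complex II is encoded wholly in the nucleus, whereas the other complexes mix nuclear subunits with subunits of the mitochondrial genome. The proximal tubule of the kidney is densely packed with mitochondria and relies on oxidative metabolism for reabsorption.

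Libraries held 28145261 to 43872779 counts each. The targeted gene Cdo1 measured 181, 191 and 180 CPM (counts scaled to the library total, with TMM-scaled totals) in WT/Sed, then 109, 118 and 103 CPM in Cdo1KKO/Sed, so every Cdo1KKO/Sed library lay below every WT/Sed library and transcript remained (log2 fold change -0.74 ± 0.06 SE, edgeR adjusted p = 4.64e-06). Cdo1 counts in whole kidney include cells outside the tubule, and why transcript remained was not tested. Marker lists of the proximal tubule had median log2 fold changes of -0.54 (segment S1) and -0.72 (segments S2 and S3). The Cdo1 fall was therefore of a size also seen in genes that were not targeted. WT/Sed replicates 2 and 3 differed most from each other among replicate pairs of the same group (chi-square per degree of freedom 36.75, against 3.39 to 13.49 for the other pairs). Scaling matters for every fold change below: the TMM factors were 0.9376 to 0.9485 in WT/Sed, then 1.051 to 1.0655 in Cdo1KKO/Sed, and over all genes tested the median log2 fold change was 0.01 with TMM, 0.18 with library size only and 0.19 on log2(TPM + 1).

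Transcripts of complexes II, III, IV and V were lower in Cdo1KKO/Sed kidneys. Of the 50 members with enough counts to test, 46 fell and 0 rose in edgeR's quasi-likelihood test at an adjusted p under 0.05, while 18.5% of all 17194 genes tested fell, 18.9% rose and 37.4% did either. The median log2 fold change of the members was -0.44. At an unadjusted p under 0.05, 0 members rose, and DESeq2 and limma-voom also called 0. Most members moved by a similar amount: 40 of the 50 had a Cdo1KKO/Sed mean between 65 and 80% of the WT/Sed mean CPM. The 4 members without a call were Cycs, Cox7a2l, Sdhaf2 and Sdhaf3. The 5 members that were not tested were Cox4i2, Cox7b2, Cox8b, Cox8c and the second Atp5o identifier.

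All 3 Cdo1KKO/Sed libraries lay below all 3 WT/Sed libraries in CPM for 45 of the 50 members (24.5% of all genes tested), and for 0 members did they lie above (25.7%). In deposited TPM, which is scaled by gene length and sums to the same total in each library, 36 members were below (9.74%) and 3 (Cycs, Sdhaf3 and Uqcrc2) above (47.8%). The members took 1.47 to 1.51% of all counts in WT/Sed, then 1.26 to 1.32% in Cdo1KKO/Sed. With library size as the only scaling, 38 members fell and 0 rose, against 9.8% of all genes that fell and 32.1% that rose. On log2(TPM + 1), 32 members fell and 1 rose, with 7.25% and 39.5% of all genes. The members' median was -0.27 and -0.18 under these scalings, which is 0.44 and 0.37 below the median of all genes, against 0.44 below it with TMM.

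**Figure D1:**
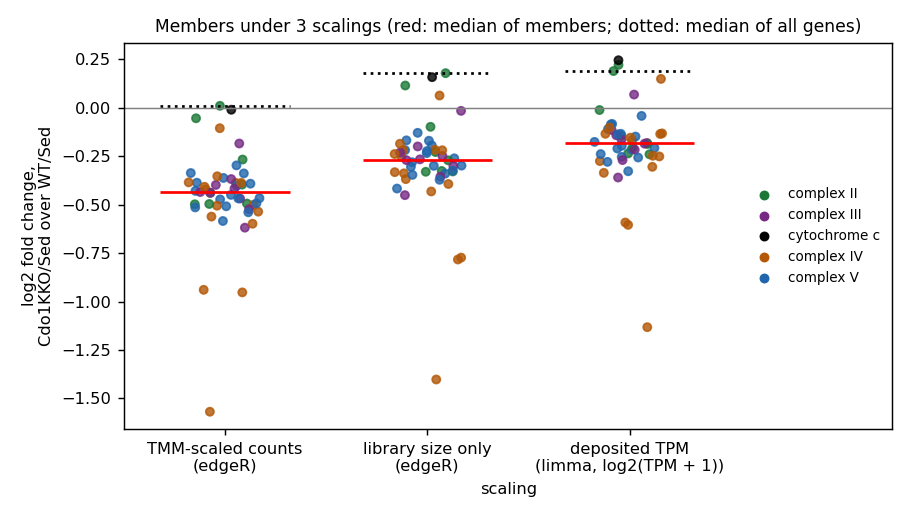
Log2 fold change of Cdo1KKO/Sed over WT/Sed (vertical axis) of each of the 50 tested members under 3 scalings (horizontal axis). Points are members coloured by complex, spread sideways only for legibility, the red line is the members' median and the dotted line the median of all genes tested. The members' medians of -0.44, -0.27 and -0.18 sit below the medians of all genes of 0.01, 0.18 and 0.19.

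Markers of nephron segments and blood cells also differed between the groups, with falls in some lists and rises in others. Of the markers of proximal tubule segment S1, 7 of 8 fell (median -0.54), and of segments S2 and S3, 8 of 8 fell (median -0.72). Their summed TPM was 4001 to 4367 in WT/Sed but 3008 to 3209 in Cdo1KKO/Sed for S1, and 9339 to 11132 but 6877 to 7621 for S2 and S3. Thick ascending limb markers rose in 4 of 6 cases and fell in 1 (summed TPM 1742 to 2321 and 3535 to 3795), and distal convoluted tubule markers rose in 3 of 4 (333 to 400 and 652 to 660). Red blood cell markers rose in 5 of 5 cases (77.2 to 155 and 1407 to 1459). Macrophage markers rose in 5 of 7 cases and fell in 1 (34.4 to 58.1 and 94 to 96.8), and neutrophil markers rose in 4 of the 5 tested of 6 (3.02 to 7.84 and 56.8 to 72).

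Among the other lists, 2 of 6 collecting duct markers fell (Aqp2 and Aqp3), 1 of 5 podocyte markers fell (Wt1), and 3 of 7 markers of smooth muscle and pericytes rose. Over all genes tested, 18.5% fell and 18.9% rose, so 1 of 5 podocyte markers is near the share of all genes. None of 5 markers of endothelium and none of 5 of T and NK cells passed the test in edgeR. The endothelial markers had a median log2 fold change of 0.68 and varied widely in WT/Sed. They summed to 36.7, 60.6 and 16.2 TPM in WT/Sed, then 76.1, 70.8 and 73.6 TPM in Cdo1KKO/Sed. T and NK cell markers summed to 0.811 to 2.62 TPM and then 2.69 to 3.37 TPM. Skeletal muscle markers stayed at a summed 1.95 to 4.75 TPM in WT/Sed, then 3.46 to 4.22 TPM in Cdo1KKO/Sed, with Myh4 at 0, and 0 of the 2 tested passed. Markers of adipocytes (0.0684 to 0.765 TPM over all libraries, Lep at 0) and of testis germ cells (0 to 0.635 TPM, Prm1, Prm2 and Ldhc at 0) were near 0. On log2(TPM + 1), 5 of 8 markers of S1 and 8 of 8 of S2 and S3 fell, 5 of 6 of the thick ascending limb rose, and 3 of 5 of endothelium rose. On that scale 7.25% of all genes tested fell and 39.5% rose. The part of these markers' cells in the members' values was not tested. In whole-kidney RNA, fewer cells of a type and less RNA per cell cannot be told apart.

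**Figure D2:**
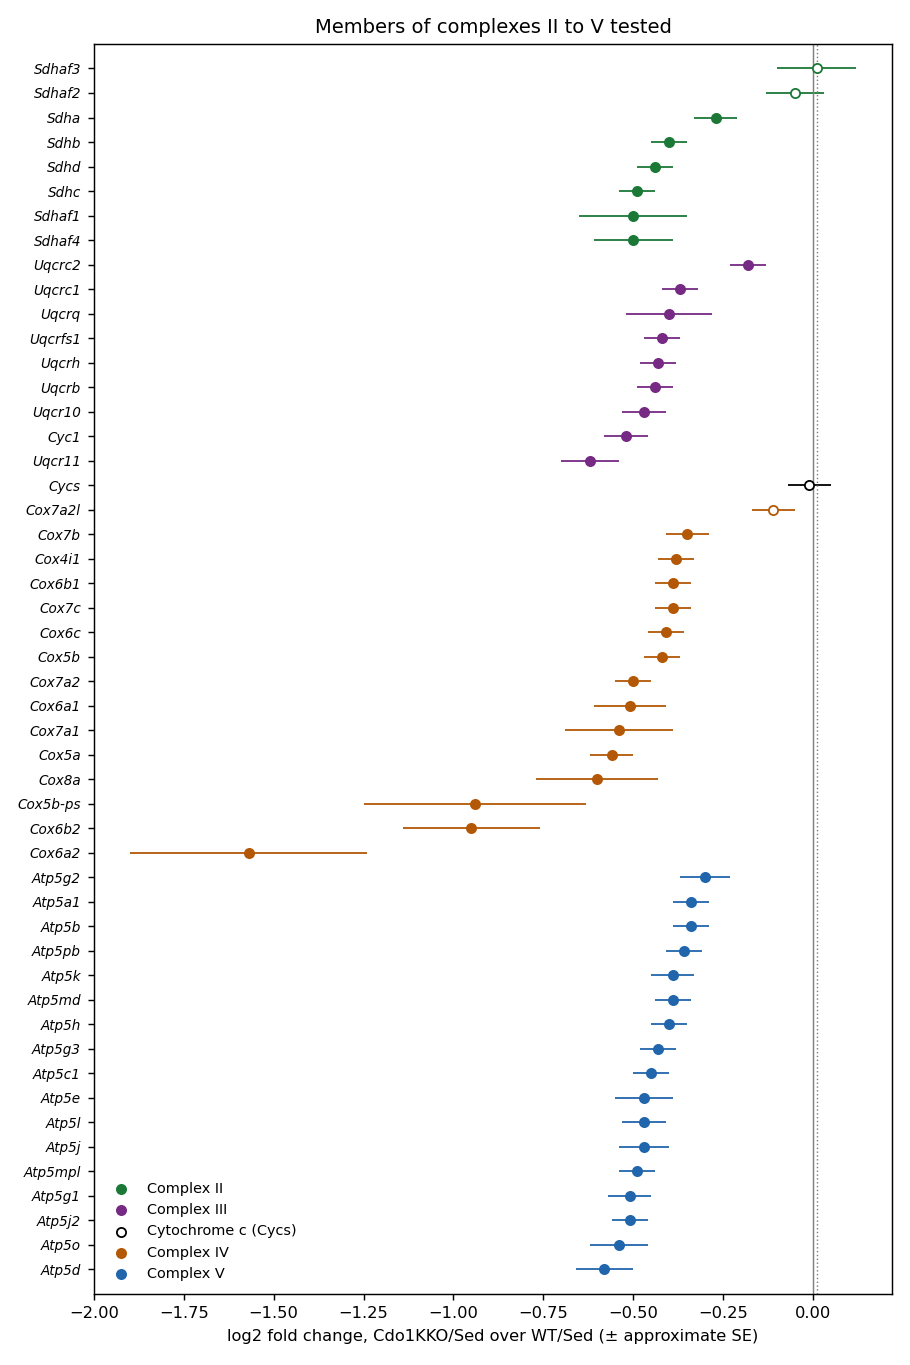
Log2 fold change (horizontal axis) of the 50 tested members, grouped by complex and ordered within it, with approximate standard errors as bars. Filled points fell at an edgeR adjusted p under 0.05, open points were not called, and the dotted line is the median of all genes tested (0.01). Most members lie between -0.3 and -0.6, with Cycs, Cox7a2l, Sdhaf2 and Sdhaf3 near 0 and Cox6a2 lowest at -1.57.

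Of complex II, 6 of 8 genes fell (median -0.42): all 4 subunits and 2 of the 4 assembly factors. Sdhc, a membrane anchor (chr1:171127165-171150603, minus strand, positions here and below from GENCODE M21 on GRCm38), measured 390, 405 and 374 CPM in WT/Sed, then 276, 284 and 270 CPM in Cdo1KKO/Sed. Sdhd, the other anchor (chr9:50596357-50603812, minus strand), measured 233, 239 and 229 CPM and then 167, 182 and 169 CPM. Sdhb, the iron-sulphur subunit (chr4:140961203-140979193, plus strand), measured 263, 269 and 260 CPM and then 202, 209 and 190 CPM. For these 3 genes the groups were well apart, with log2 fold changes of -0.49 ± 0.05 (SE, edgeR adjusted p = 2.46e-05) for Sdhc, -0.44 ± 0.05 (adjusted p = 7.49e-05) for Sdhd and -0.40 ± 0.05 (adjusted p = 0.000147) for Sdhb. Sdha, the flavoprotein that oxidises succinate, had the smallest fall of the subunits, from 772 ± 55.6 CPM (SD, n = 3) to 641 ± 11.5 CPM, a log2 fold change of -0.27 (edgeR adjusted p = 0.00391). The Sdha call did not hold with library size only (-0.10, adjusted p = 0.173) or on log2(TPM + 1) (-0.01, limma adjusted p = 0.895), where 3 of the 8 genes fell.

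Of the assembly factors of complex II, 2 fell and 2 had no call. Sdhaf1, which helps load iron-sulphur clusters into Sdhb, measured 7.04, 7.76 and 5.96 CPM in WT/Sed, then 5.42, 4.88 and 4.4 CPM in Cdo1KKO/Sed (log2 fold change -0.50 ± 0.15, edgeR adjusted p = 0.0226). That call did not hold without WT/Sed replicate 1 (adjusted p = 0.0814), Cdo1KKO/Sed replicate 2 (0.0696) or Cdo1KKO/Sed replicate 3 (0.0986). Nor did it hold with library size only (0.105) or on log2(TPM + 1) (limma adjusted p = 0.153). Sdhaf4, which acts on flavinated Sdha, measured 16.8, 21.5 and 16.7 CPM and then 12.4, 13.5 and 12.9 CPM, also with a log2 fold change of -0.50 (adjusted p = 0.00427). The Sdhaf4 call did not hold on log2(TPM + 1) (limma adjusted p = 0.0671). Sdhaf3, another factor for the iron-sulphur subunit, measured 10.7, 9.67 and 11 CPM in WT/Sed, then 10.8, 11.3 and 9.46 CPM in Cdo1KKO/Sed, overlapping groups with a log2 fold change of 0.01 ± 0.11 (edgeR adjusted p = 0.954). Sdhaf2, needed to attach flavin to Sdha, measured 37.7, 30.5 and 34.1 CPM and then 34.4, 31.9 and 32.5 CPM (log2 fold change -0.05, adjusted p = 0.646).

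Every one of the 9 nuclear genes assigned to complex III fell (median -0.43), and 7 fell with library size only and 7 on log2(TPM + 1). Cyc1, the cytochrome c1 subunit that passes electrons to cytochrome c (chr15:76343523-76346260, plus strand), measured 232, 228 and 215 CPM in WT/Sed, then 152, 165 and 152 CPM in Cdo1KKO/Sed. Uqcrh, the hinge protein beside cytochrome c1 (chr4:116066965-116075071, minus strand), measured 383, 369 and 378 CPM and then 282, 277 and 278 CPM. Uqcrb, which lies near a ubiquinone site (chr13:66900617-66905378, minus strand), measured 215, 214 and 206 CPM and then 155, 158 and 156 CPM. Replicates of these 3 genes were tight within both groups, and the log2 fold changes were -0.52 ± 0.06 (edgeR adjusted p = 3.04e-05), -0.43 ± 0.05 (3.11e-05) and -0.44 ± 0.05 (3.68e-05).

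The Rieske iron-sulphur protein gene Uqcrfs1 fell by 0.42 on the log2 scale. The lowest fold change of complex III belonged to Uqcr11, a small subunit at the edge of the complex, with 122, 129 and 103 CPM in WT/Sed, then 78, 79.8 and 72.6 CPM in Cdo1KKO/Sed (log2 fold change -0.62 ± 0.08, edgeR adjusted p = 0.000178). The highest belonged to Uqcrc2, a core protein without a redox centre, with 345, 344 and 352 CPM and then 309, 310 and 297 CPM (log2 fold change -0.18 ± 0.05, adjusted p = 0.0102). The direction for Uqcrc2 depends on the scaling, since its log2 fold change on log2(TPM + 1) was 0.07 (limma adjusted p = 0.186), and without Cdo1KKO/Sed replicate 3 its edgeR adjusted p was 0.0504. Uqcrq was the only gene assigned to complex III whose groups overlapped in CPM, with 137, 136 and 106 against 92.1, 108 and 87.1 CPM (adjusted p = 0.0326). Its call was lost without any 1 of WT/Sed replicate 1 (adjusted p = 0.0967), WT/Sed replicate 2 (0.155), Cdo1KKO/Sed replicate 1 (0.0973) or Cdo1KKO/Sed replicate 3 (0.0962). It was also lost with library size only (0.16) and on log2(TPM + 1) (limma adjusted p = 0.314).

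Cycs, the somatic cytochrome c that carries electrons from complex III to complex IV (chr6:50562563-50566538, minus strand), had no call. It measured 420, 455 and 382 CPM in WT/Sed, then 409, 419 and 420 CPM in Cdo1KKO/Sed. The Cdo1KKO/Sed libraries lay inside the WT/Sed range, with a log2 fold change of -0.01 ± 0.06 (edgeR adjusted p = 0.922). In TPM, however, its 327, 328 and 336 in Cdo1KKO/Sed lay above the 280, 299 and 258 in WT/Sed, and limma on log2(TPM + 1) called it higher by 0.25 (adjusted p = 0.0101). Of all genes tested, 47.8% had every Cdo1KKO/Sed library above every WT/Sed library in TPM. On log2(TPM + 1), 39.5% of all genes rose and the median of all genes was 0.19, close to the value of Cycs. A ratio within each library does not depend on scaling between libraries: the TPM of Cycs over that of Cyc1 was 1.14, 1.26 and 1.13 in WT/Sed, then 1.7, 1.6 and 1.75 in Cdo1KKO/Sed. The means of 1.18 ± 0.0752 and 1.68 ± 0.073 (SD, n = 3) differed with no overlap (exact two-sided permutation p = 0.1, the smallest that 3 against 3 allows).

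Of complex IV, 14 of the 15 genes tested fell (median -0.50), out of 19 assigned to it, and 11 fell with library size only and 10 on log2(TPM + 1). The 10 subunits in general use all fell, with log2 fold changes from -0.60 to -0.35. Cox5a, a matrix-side subunit (chr9:57521274-57532426, plus strand), measured 67.9, 72.3 and 69.7 CPM in WT/Sed, then 46.9, 49.3 and 45.9 CPM in Cdo1KKO/Sed (log2 fold change -0.56 ± 0.06, edgeR adjusted p = 1.83e-05). Cox7a2, the general form of the subunit that helps pair oxidase complexes (chr9:79755361-79759878, minus strand), measured 298, 286 and 284 CPM and then 205, 213 and 196 CPM (-0.50 ± 0.05, adjusted p = 2.31e-05). Cox6c, a transmembrane subunit (chr15:35925886-35938246, minus strand), measured 523, 497 and 505 CPM and then 395, 368 and 387 CPM (-0.41 ± 0.05, adjusted p = 8.57e-05). For these 3 genes the lowest WT/Sed library stood clear of the highest Cdo1KKO/Sed library.

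Cox8a, the general form of the smallest transmembrane subunit, was uneven among replicates, with 219, 245 and 165 CPM in WT/Sed, then 130, 160 and 125 CPM in Cdo1KKO/Sed (log2 fold change -0.60 ± 0.17, edgeR adjusted p = 0.0384). WT/Sed replicate 2 was high and WT/Sed replicate 3 low, and the same order held in WT/Sed for Cox6a1 (239, 266 and 208 CPM). The Cox8a call did not hold without WT/Sed replicate 1 (adjusted p = 0.0852), WT/Sed replicate 2 (0.145), Cdo1KKO/Sed replicate 1 (0.0885) or Cdo1KKO/Sed replicate 3 (0.0909), and with no filter on low counts (0.116). It was also lost with library size only (0.0974) and on log2(TPM + 1) (limma adjusted p = 0.0842). Cox5b-ps, a single-exon copy of Cox5b that the annotation lists as protein-coding, measured only 1.23, 1.8 and 1.12 CPM in WT/Sed, then 0.674, 0.855 and 0.61 CPM in Cdo1KKO/Sed (log2 fold change -0.94, adjusted p = 0.0366). Its reads may be shared with Cox5b, so its value is uncertain. Its call did not hold without WT/Sed replicate 1 (adjusted p = 0.0676) or 2 (0.109), or Cdo1KKO/Sed replicate 1 (0.103), 2 (0.0525) or 3 (0.124), nor with library size only (0.0712).

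Cox7a2l, a relative of Cox7a2 that joins complexes III and IV into supercomplexes (chr17:83501918-83517330, minus strand), was the 1 tested gene of complex IV without a call. It measured 90.1, 85.9 and 98.9 CPM in WT/Sed, then 84.5, 89.4 and 82 CPM in Cdo1KKO/Sed, with overlapping groups and a log2 fold change of -0.11 ± 0.06 (edgeR adjusted p = 0.22). Without WT/Sed replicate 2 the log2 fold change was -0.15 and passed the test (adjusted p = 0.0465). Within libraries, its TPM over that of Cox7a2 was 0.193, 0.192 and 0.222 in WT/Sed, then 0.264, 0.268 and 0.267 in Cdo1KKO/Sed. All 3 Cdo1KKO/Sed ratios were above the WT/Sed ratios (exact permutation p = 0.1, the smallest possible). The ratio of Sdhaf3 to Sdhb (0.0174 ± 0.00145 and 0.0231 ± 0.00107, SD, n = 3) and of Sdhaf2 to Sdha (0.0254 ± 0.00207 and 0.0295 ± 0.00128) did not overlap either. These 4 ratios were chosen after the members without a call were known, so they describe those genes, and the adjusted p of each was 0.1 (exact permutation test, Benjamini-Hochberg over 4).

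**Figure D3:**
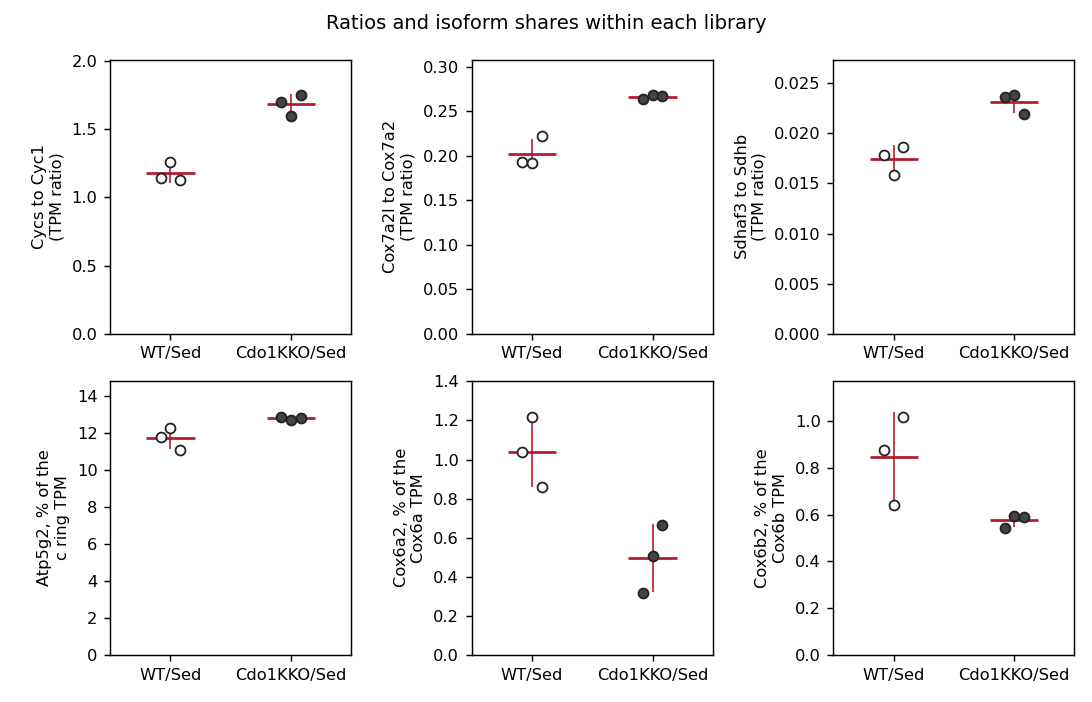
TPM ratios of members within each library (top row) and shares of an isoform in the TPM of its family (bottom row, in %), for the 3 WT/Sed libraries (open circles) and the 3 Cdo1KKO/Sed libraries (filled circles). Red lines are the mean and its SD. The ratio of Cycs to Cyc1 goes from a mean of 1.18 to 1.68, and the share of Cox6a2 from 1.04% to 0.496%.

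Several complex IV subunits have a second gene used mainly in muscle, lung or testis, and these were scarce in kidney. Cox6a2, the form of heart and skeletal muscle (chr7:128205435-128206387, minus strand), measured 2.44, 3.19 and 1.75 CPM in WT/Sed, then 0.49, 0.931 and 1 CPM in Cdo1KKO/Sed. This was the lowest fold change of all members, at -1.57 ± 0.33 on the log2 scale (edgeR adjusted p = 0.0031). Its share of the Cox6a TPM was 1.04, 1.22 and 0.86% in WT/Sed, then 0.318, 0.507 and 0.663% in Cdo1KKO/Sed, with no overlap. Cox6b2, known from testis, measured 6.37, 4.57 and 7.39 CPM and then 3.12, 3.22 and 3.18 CPM (log2 fold change -0.95 ± 0.19, adjusted p = 0.00207). Its share of the Cox6b TPM went from 0.846 ± 0.189% (SD, n = 3) to 0.578 ± 0.0285%, again with no overlap.

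Cox7a1, the heart and muscle form of Cox7a, measured 6.78, 9.3 and 8.25 CPM in WT/Sed, then 5.05, 6.31 and 5.34 CPM in Cdo1KKO/Sed (log2 fold change -0.54 ± 0.15, edgeR adjusted p = 0.0167). The call was lost without Cdo1KKO/Sed replicate 1 (adjusted p = 0.078) or 3 (0.0703), with library size only (0.0723) and on log2(TPM + 1) (limma adjusted p = 0.0918). Its share of the Cox7a TPM, 4.72 ± 0.788% and 4.58 ± 0.401% (SD, n = 3), overlapped between groups. The lung form Cox4i2 had 0, 2 and 6 counts in WT/Sed, then 8, 6 and 7 counts in Cdo1KKO/Sed, 0.0275 ± 0.0276% and 0.0877 ± 0.0258% of the Cox4i TPM. Those few counts left it out of the test across genes.

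Cox7b2, a testis form, had 1 count in 1 WT/Sed library and 0 elsewhere, and Cox8b, a muscle form, had 4 counts in Cdo1KKO/Sed replicate 2 and 0 elsewhere. Cox8c, a testis form, had 0 counts in all libraries. This allows up to 0.0281 CPM over the WT/Sed libraries and 0.0254 CPM over the Cdo1KKO/Sed libraries (3 counts per group, counting error only). These limits treat each count as independent and are too low where both mates of a fragment were counted. Over the 10 isoform shares compared, including those of the c ring below, the exact two-sided permutation p was 0.1 at best and the adjusted p 0.2 at best, so this design cannot call any of them.

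Every one of the 17 complex V genes tested fell (median -0.45, log2 fold changes -0.58 to -0.30), and 16 fell with library size only and 12 on log2(TPM + 1). Of the catalytic F1 part, which makes ATP, 5 of 5 fell. Atp5c1, the rotating central stalk of F1 (chr2:10056016-10080510, minus strand), measured 565, 568 and 583 CPM in WT/Sed, then 424, 421 and 411 CPM in Cdo1KKO/Sed (log2 fold change -0.45 ± 0.05, edgeR adjusted p = 2.31e-05). Atp5b, the catalytic beta subunit, was the member with the highest count, at 2431, 2311 and 2546 CPM and then 1899, 2019 and 1854 CPM (-0.34 ± 0.05, adjusted p = 0.000475). Atp5d, the delta subunit of the central stalk, had the lowest fold change of complex V, with 252, 270 and 218 CPM and then 161, 179 and 154 CPM (-0.58 ± 0.08, adjusted p = 0.000397). In all 3 genes the groups were apart in CPM, and in TPM those of Atp5b overlapped.

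Of the membrane-bound accessory subunits 5 of 5 fell. Atp5j2, subunit f, had the smallest p-value of all members (chr5:145183698-145192062, minus strand), with 279, 275 and 268 CPM in WT/Sed, then 195, 192 and 192 CPM in Cdo1KKO/Sed (log2 fold change -0.51 ± 0.05, edgeR adjusted p = 1.12e-05). Atp5mpl, a small proteolipid of the membrane part (chr12:111961375-111966977, minus strand), measured 186, 181 and 170 CPM and then 131, 127 and 124 CPM (-0.49 ± 0.05, adjusted p = 3.38e-05). Atp5k and Atp5l, subunits e and g that help join the enzyme into dimers, fell by 0.39 and by 0.47 on the log2 scale. The peripheral stalk, which holds F1 still against the rotor, fell in 4 of 4 genes tested: Atp5o (the oligomycin sensitivity protein) by 0.54, Atp5j by 0.47, Atp5h by 0.40 and Atp5pb by 0.36. The identifier of Atp5o listed at 0 overlaps the one with counts on chromosome 16, and how overlapping genes were counted is not known here.

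The proton-carrying c ring is made from 3 genes whose mature protein is the same. Atp5g3, the main source in these kidneys, measured 650, 626 and 609 CPM in WT/Sed, then 460, 486 and 454 CPM in Cdo1KKO/Sed (log2 fold change -0.43 ± 0.05, edgeR adjusted p = 6.60e-05). Atp5g1 measured 177, 189 and 163 CPM and then 121, 130 and 120 CPM (-0.51 ± 0.06, adjusted p = 8.38e-05). Atp5g2 measured 74.9, 76.5 and 65.3 CPM and then 58.3, 60.9 and 57 CPM, the highest fold change of complex V (-0.30 ± 0.07, adjusted p = 0.00519). The Atp5g2 call did not hold with library size only (-0.13, adjusted p = 0.153) or on log2(TPM + 1) (-0.04, limma adjusted p = 0.599). Within libraries Atp5g2 took 11.8, 12.3 and 11.1% of the ring's TPM in WT/Sed, then 12.9, 12.7 and 12.8% in Cdo1KKO/Sed. Atp5g1 took 9.54, 10.3 and 9.46% and then 9.13, 9.25 and 9.13%, so these shares did not overlap in either case, whereas that of Atp5g3 did (78.5 ± 1.06% and 78 ± 0.0546%, SD, n = 3).

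Compared with one another, the 4 complexes had summed TPM values lower by similar proportions. Summed TPM of complex II was 1467, 1446 and 1484 in WT/Sed, then 1335, 1363 and 1310 in Cdo1KKO/Sed, 91.1% of the WT/Sed mean. Complex III summed to 4033, 4019 and 3854 TPM and then 3503, 3572 and 3413 TPM (88.1%). Complex IV summed to 6675, 6722 and 6367 TPM and then 5828, 5982 and 5621 TPM (88.2%). In each of these complexes the highest Cdo1KKO/Sed library was below the lowest WT/Sed library, and this was so for complex V as well, with 6708, 6577 and 6670 TPM and then 6035, 6103 and 5874 TPM (90.3%).

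As shares of the summed TPM of complexes II to V, the differences between groups were small. Complex II took 7.85 ± 0.196% in WT/Sed, then 8.03 ± 0.0439% in Cdo1KKO/Sed (SD, n = 3), complex III 21.2 ± 0.241% and 21 ± 0.0363%, complex IV 35.3 ± 0.588% and 34.9 ± 0.245%, and complex V 35.6 ± 0.63% and 36.1 ± 0.19%. The differences were 0.17, -0.25, -0.37 and 0.45 percentage points for complexes II, III, IV and V, below the WT/Sed SD except in complex III, where they were nearly equal. WT/Sed replicates 2 and 3 decided their size: without replicate 2 the differences were 0.1, -0.16, -0.1 and 0.16 points, and without replicate 3 they were 0.29, -0.39, -0.68 and 0.78 points. No test was made of these sums over members.

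**Figure D4:**
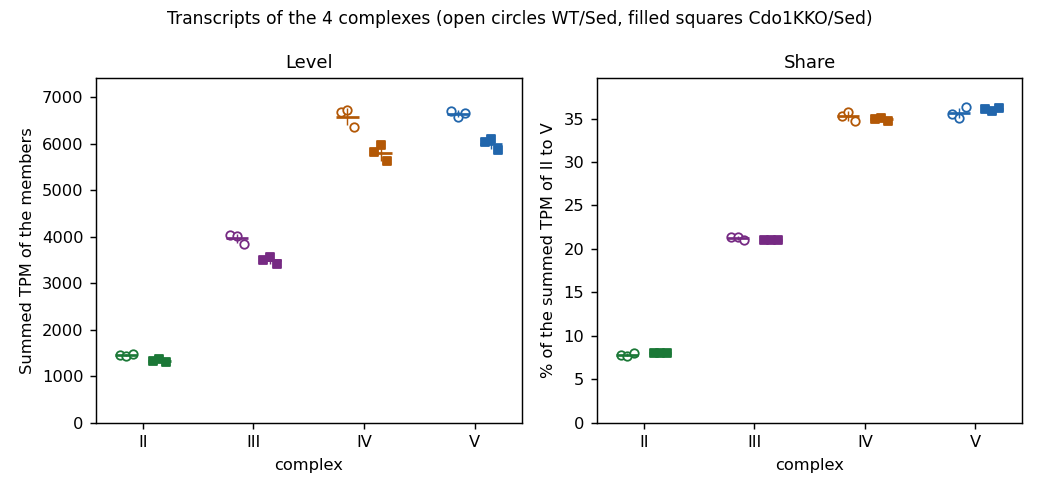
Summed TPM of the members of each complex (left, vertical axis in TPM) and each complex's share of the sum over complexes II to V (right, in %), for each WT/Sed library (open circles) and Cdo1KKO/Sed library (filled squares), with the mean (horizontal line) and SD (vertical line). Every complex is lower in Cdo1KKO/Sed, at 88.1 to 91.1% of the WT/Sed mean, and the shares differ by at most 0.45 percentage points (0.78 without WT/Sed replicate 3).

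**Figure D5:**
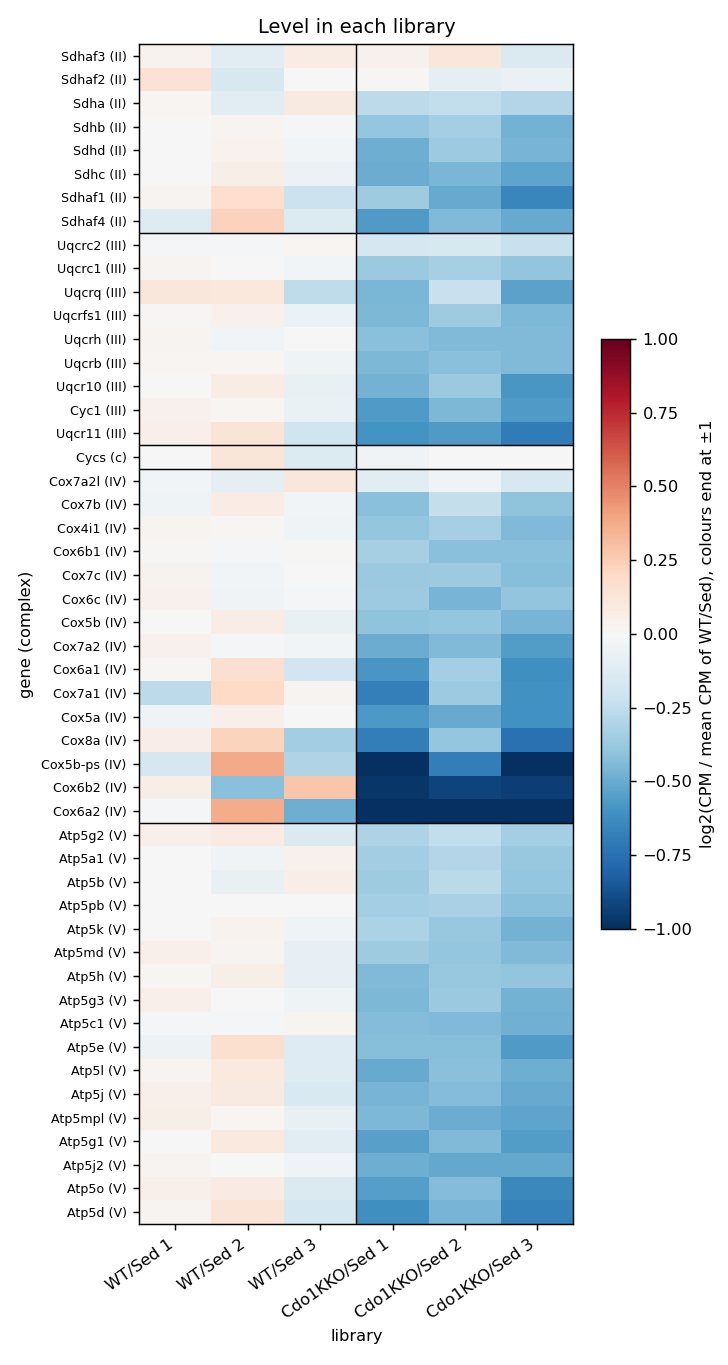
Level of each tested member (rows, with its complex in brackets) in each library (columns), as log2 of its CPM over the mean CPM of the WT/Sed libraries, on a colour scale that ends at 1 in either direction. Most rows are blue in all 3 Cdo1KKO/Sed libraries, while Cycs, Cox7a2l, Sdhaf2 and Sdhaf3 stay pale.

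Members are among the most abundant messages of the kidney. In WT/Sed, 42 of the 55 were in the top 10% of protein-coding genes by mean TPM, whose lower limit was 42.4 TPM, and 10 were among the top 100. The 4 subunits of complex II had the narrowest range of levels per length, from 268 TPM (Sdhb) to 432 TPM (Sdhd), 1.61-fold. A range tends to widen with the number of genes, and complexes III, IV and V had 9, 11 and 17 genes here. Complex III ranged from 157 TPM (Uqcrq) to 772 TPM (Uqcr10). The general subunits of complex IV with Cox7a2l ranged from 75.6 TPM (Cox5a) to 1467 TPM (Cox6b1), and complex V from 40.1 TPM (Atp5o) to 1302 TPM (Atp5b), a 32.5-fold range.

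The order of the members by TPM was kept between groups (Spearman's rho 0.992 across 50 genes), and the level in WT/Sed was only weakly related to the log2 fold change (rho 0.222 across the same 50 genes). Both are descriptions across genes that share the same libraries. The members lie on 19 chromosomes, with 7 on chromosome 7 and 1 on chromosome X. Counts on 10 named pseudogenes of the members were 0.0112 to 0.0183% of the members' counts in each library, so pseudogenes listed under these names took few of the reads.

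Promoter sequences are given as a description, and whether their motifs relate to the fall of the members was not tested. NRF1, GABPA (an ETS factor), the estrogen-related receptors and YY1 are known regulators of nuclear respiratory genes. The 250 bases before the RefSeq start (GRCm38.p6, first start listed per gene) were available for 39 tested members and searched on both strands for GCATGCG (NRF1 core, which overlaps itself when it sits in CGCATGCG), CCGGAAG (ETS), AAGGTCA (a site of the estrogen-related receptors) and AAGATGG (YY1). The NRF1 core was in 6 of 39 members (15.4%) against 3.07% of all 27025 promoters and 5% of those of genes tested here. The ETS motif was in 10 (25.6%) against 7.05% and 12.5%, the receptor site in 2 (5.13%) against 4.05% and 3.03%, and the YY1 motif in 0 against 4.53% and 4.23%. Of the 39 members, 24 held none of these letters in the window. For 33 of the 39, the bases after the start were found in a GENCODE transcript of the gene. Only 12 passed this check and were also overlapped by at most 1 base of the gene's own exons. The shares above therefore include windows that overlap exons or have an unconfirmed start. A match is a description of the letters and not evidence of binding.

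Of the 12 members whose window passed both checks, 7 are shown, 5′ to 3′ on the gene's strand, with motif matches in capitals. Those that fell are Uqcrh (chr4:116075071-116075320, minus strand), Cox7b (chrX:106015450-106015699, plus strand) and Atp5c1 (chr2:10080511-10080760, minus strand), which had the smallest p-values of their complexes among the 12, and Atp5l (chr9:44920743-44920992, minus strand), which held the most motifs. Those without a call are Cycs (chr6:50566570-50566819, minus strand), Cox7a2l (chr17:83514334-83514583, minus strand) and Sdhaf2 (chr19:10525210-10525459, minus strand). The windows of Cox7a2l and Sdhaf2 lie inside the GENCODE spans of these genes (chr17:83501918-83517330 and chr19:10500534-10526142), so GENCODE lists starts further upstream.
Uqcrh: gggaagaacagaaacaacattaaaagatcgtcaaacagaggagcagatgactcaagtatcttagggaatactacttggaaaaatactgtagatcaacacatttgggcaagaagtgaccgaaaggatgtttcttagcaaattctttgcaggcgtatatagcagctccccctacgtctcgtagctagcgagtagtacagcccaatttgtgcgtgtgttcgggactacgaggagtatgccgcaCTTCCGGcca
Cox7b: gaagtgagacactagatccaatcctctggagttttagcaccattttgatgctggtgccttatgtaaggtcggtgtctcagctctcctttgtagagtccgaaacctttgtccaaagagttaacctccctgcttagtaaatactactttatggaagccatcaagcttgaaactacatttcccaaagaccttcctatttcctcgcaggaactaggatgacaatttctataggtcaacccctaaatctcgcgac
Atp5c1: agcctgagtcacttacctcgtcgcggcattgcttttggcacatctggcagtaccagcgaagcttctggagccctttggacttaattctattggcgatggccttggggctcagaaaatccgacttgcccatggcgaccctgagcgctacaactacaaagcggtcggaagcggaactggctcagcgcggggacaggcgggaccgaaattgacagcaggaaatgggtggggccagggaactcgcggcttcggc
Atp5l: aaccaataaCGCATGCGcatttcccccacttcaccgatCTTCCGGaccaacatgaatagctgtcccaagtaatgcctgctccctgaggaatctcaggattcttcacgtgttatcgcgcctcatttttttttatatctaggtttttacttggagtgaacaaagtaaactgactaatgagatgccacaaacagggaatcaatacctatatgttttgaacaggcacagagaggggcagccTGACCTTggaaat
Cycs: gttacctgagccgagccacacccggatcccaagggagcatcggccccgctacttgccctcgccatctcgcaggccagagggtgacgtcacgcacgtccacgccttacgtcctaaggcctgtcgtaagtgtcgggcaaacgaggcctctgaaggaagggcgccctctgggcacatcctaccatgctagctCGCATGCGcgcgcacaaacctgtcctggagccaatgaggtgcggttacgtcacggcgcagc
Cox7a2l: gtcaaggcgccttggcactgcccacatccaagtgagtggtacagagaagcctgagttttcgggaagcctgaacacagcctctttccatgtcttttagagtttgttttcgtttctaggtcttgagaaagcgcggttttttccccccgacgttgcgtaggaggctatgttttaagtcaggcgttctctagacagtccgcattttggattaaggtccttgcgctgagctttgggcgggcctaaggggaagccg
Sdhaf2: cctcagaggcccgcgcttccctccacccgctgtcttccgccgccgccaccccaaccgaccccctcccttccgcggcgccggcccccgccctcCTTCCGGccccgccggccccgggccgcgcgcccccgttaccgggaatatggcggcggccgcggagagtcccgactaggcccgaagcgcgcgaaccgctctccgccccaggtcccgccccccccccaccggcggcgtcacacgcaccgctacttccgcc
The 7 windows were picked by p-value, motif number or lack of a call, so they do not give shares. Over all 39 members searched, only Cycs held the NRF1 core without a call. Only Sdhaf2 and Sdhaf3 held the ETS letters without a call. Members with none of the motifs also fell, except Cox7a2l. Among the 7 shown, the NRF1 core stood in the promoter of Cycs, which had no call, and in that of Atp5l, which fell. The ETS letters (CTTCCGG on the strand shown) stood in Uqcrh and Atp5l, which fell, and in Sdhaf2, which had no call, while Cox7b and Atp5c1 fell with no match in the window.

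Of 8 regulators of mitochondrial genes, 2 fell, 1 rose and 5 were not called (median -0.06). Esrra, an estrogen-related receptor, went from 92.6 ± 8.91 CPM (SD, n = 3) to 62.1 ± 2.79 CPM (log2 fold change -0.57, edgeR adjusted p = 0.000106), and Tfam, the factor of mitochondrial DNA, fell by 0.19 on the log2 scale. Ppargc1b, a coactivator, rose from 3.86 ± 0.595 to 6.88 ± 0.679 CPM, by 0.84 on the log2 scale (adjusted p = 0.00154). Ppargc1a, its better known relative, had 84.8 ± 2.36 and 79.7 ± 1.74 CPM and no call (adjusted p = 0.187). Nrf1, Gabpa, Yy1 and Ppara had log2 fold changes of -0.19, 0.05, 0.00 and -0.03 with no call. These 3 calls of 8 are a share near the 37.4% of all genes called in either direction. The list median lay 0.07 below that of all genes with TMM and 0.01 above it on log2(TPM + 1). On that scale 1 regulator fell and 4 rose, against 7.25% and 39.5% of all genes.

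With TMM, factors that assemble the same complexes were also lower in part, while 18.5% of all genes tested fell and 18.9% rose. Of complex III factors 4 of 6 fell (median -0.32), from Uqcc3 at -0.45 to Ttc19 at 0.14, which had no call. Of complex IV factors 12 of the 23 tested fell and 0 rose (median -0.26), from Coa6 (-0.61, edgeR adjusted p = 0.000104), a copper chaperone, to Cox18 (0.23, adjusted p = 0.253), an insertase. Of complex V factors 4 of 5 fell (median -0.27), with Fmc1 lowest at -0.41 and Atpaf1 highest at -0.19 and not called. On log2(TPM + 1), 0 of 6, 1 of 23 and 1 of 5 fell and 1, 3 and 0 rose, while 7.25% of all genes fell and 39.5% rose. Relative to the median of all genes, which this scale lifts from 0.01 to 0.19, the list medians lay 0.25, 0.20 and 0.21 below, against 0.32, 0.27 and 0.27 below with TMM. Whether assembly factors differ from subunits was not tested.

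The subunits of complexes III, IV and V that mitochondria encode fell in 5 of 6 cases with TMM (median -0.52), against 18.5% of all genes tested. mt-Co1, the catalytic core of complex IV, went from 47662 ± 737 to 40510 ± 825 CPM (SD, n = 3, log2 fold change -0.23), and mt-Cytb of complex III from 34630 ± 1345 to 27461 ± 486 CPM (log2 fold change -0.33). mt-Atp6, mt-Co2 and mt-Co3 fell from 22, 34 and 41.8 CPM to 15.2, 23.9 and 28.9 CPM, and mt-Atp8 was at 3.54 and 2.44 CPM with no call (edgeR adjusted p = 0.117). The levels of these 4 genes lay far below those of mt-Co1 and mt-Cytb, and how reads shared with near-identical copies were counted is not given in the sources used here, so they are uncertain. On log2(TPM + 1), 2 of the 6 fell (median -0.24), against 7.25% of all genes. Poly(A) selection also makes mitochondrial messages hard to set against nuclear ones.

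Complex I, which feeds electrons into the same chain, fell in 35 of 36 subunits (median -0.46), from Ndufb4 at -0.69 to Ndufb2 at 0.06, which had no call, and on log2(TPM + 1) 20 fell and 1 rose (median -0.21). Ndufa4, a subunit of complex IV despite its name, measured 331, 330 and 303 CPM in WT/Sed, then 245, 268 and 234 CPM in Cdo1KKO/Sed (log2 fold change -0.37 ± 0.06, edgeR adjusted p = 0.000847). Of 9 genes that move ATP, phosphate and metabolites across the mitochondrial membranes or regulate the ATP synthase, 6 fell and 1 rose (median -0.35), and on log2(TPM + 1) 3 fell and 3 rose (median -0.10). Over all genes tested, 7.25% fell and 39.5% rose on that scale, against 18.5% and 18.9% with TMM. Slc25a5, the main ADP/ATP carrier here, fell by 0.40 and Atpif1 by 0.39 on the log2 scale, while Ckmt1, mitochondrial creatine kinase, rose by 0.39 (adjusted p = 0.000831). Ucp2 was highest at 1.23 but had no call (adjusted p = 0.0625). Its values were uneven in WT/Sed, at 125, 61 and 156 CPM, and lay apart from the 267, 271 and 268 CPM in Cdo1KKO/Sed.

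Mitochondrial genes outside the respiratory chain had a median below that of all genes. Of 12 genes of import, folding, cristae and the citrate cycle, 7 fell and 0 rose (median -0.20), from Phb at -0.41 to Cs at -0.05, with TMM, and on log2(TPM + 1) 1 fell and 2 rose (median 0.05). Of all genes tested, 18.5% fell and 18.9% rose with TMM, and 7.25% fell and 39.5% rose on log2(TPM + 1). The list median lay 0.21 and 0.14 below that of all genes (0.01 and 0.19) on these scales. Their summed TPM was 1691 to 1701 in WT/Sed but 1736 to 1753 in Cdo1KKO/Sed. Cs, the citrate synthase gene, had 276 ± 5.36 CPM in WT/Sed, then 267 ± 6.32 CPM in Cdo1KKO/Sed (SD, n = 3) and no call (edgeR adjusted p = 0.491). These message levels do not measure mitochondrial mass. The difference between this list and the members was not tested.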

How the data were processed

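RNA of 6 kidney libraries (3 WT/Sed, 3 Cdo1KKO/Sed) was enriched for poly(A) and sequenced, per the labels' protocols. The authors deposited whole-number counts per gene and TPM for the same genes. The submitters' processing notes name fastp 0.23.4 and GRCm38 (mm10), while aligner, counter, annotation and strand setting were not given in the sources used here. Among counts from 1 to 10, 73.3 to 75.9% were even, so both mates of most fragments appear to be counted and the fragments behind a count are fewer.

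Counts were tested with edgeR 4.0.16 in R 4.3.3: filterByExpr (17194 genes kept), TMM scaling, a quasi-likelihood F test (robust fit) of genotype, with no other term, and Benjamini-Hochberg adjustment over all genes tested, with a threshold of 0.05. CPM uses TMM-scaled library sizes, and the SE is the log2 fold change divided by the root of F. Deposited TPM was used to compare levels between genes, for sums, ratios and shares, and with limma 3.58.1 on log2(TPM + 1). Isoform shares and ratios were compared by exact two-sided permutation tests (scipy 1.17.1). The edgeR script was tested on simulated data. No molecular identifiers were used, so limits for a count of 0 cover counting error only. No batch is named in the labels. P-values measure the spread between these labelled replicates.

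Alternatives were other scalings and filters, DESeq2 1.42.0, limma-voom, TPM, leaving out each library, and a replicate block. Same-numbered libraries did not deviate together (correlations -0.017, 0.022 and 0.021), so numbers were not taken as pairs. No 2 replicates agreed within counting noise. Named with every library's value were, per complex, the 3 members of smallest p, those of lowest and highest fold change, the isoform families, Cycs and Cyc1; other members named, such as Atp5b, Cox8a and Uqcrq, were chosen after their values were seen. Of 8 pathway and 15 cell marker lists, the lowest and highest genes or those that changed were named. The members and lists were chosen with earlier results of these data known.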

Additional observations from a re-analysis of the deposited data

How the results depend on the processing

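The count of members that fell was 46 with RLE or upper-quartile factors, a filter of 1 CPM, DESeq2, limma-voom and a replicate block (median -0.44 with the block, and 3029 genes of all tested fell and 3117 rose), and 45 with no filter. Scaling moved the most. With library size only the median log2 fold change was -0.27 for all members, -0.25, -0.27, -0.33 and -0.28 for complexes II, III, IV and V, and 1685 of all genes fell and 5513 rose. With log2(TPM + 1), log2(TPM + 0.1) and log2(TPM + 1) over all genes above 0, these medians were -0.18, -0.17, -0.18, -0.25 and -0.20, 1 member (Cycs, 0.25) rose, Uqcrc2 turned to 0.07, 3 complex II genes fell, and all genes gave 1246, 1224 and 1010 that fell and 6784, 6660 and 5469 that rose. Over all genes above 0, 24 members, 7 of complex IV and 8 of complex V fell. The cause was not tested.

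Leaving out 1 library gave 40 to 46 members that fell and medians of -0.46 to -0.41 (complex IV -0.53 to -0.42). The Cox7a1 share difference ran from -0.568 to 0.208 points, 0.208 without WT/Sed replicate 2 and 0.0591 without Cdo1KKO/Sed replicate 1. That of Atp5g3 ran from -1.02 to 0.0345, and was 0.253 with counts in place of TPM. Both shares overlap between groups. Depth limits Cox4i2, Cox7b2, Cox8b and Cox8c, each with 8 counts or fewer per library.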
